A study of Mus musculus with 8 samples.

Results

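Transcription from 3543 positions of the mouse genome that carry no gene name in the array files was compared among the Arc, VMH, DMH, and LH, 4 nuclei of the hypothalamus. These loci were all non-control features of the array whose name began with a chromosome on all 8 arrays, 16194 of 55681 probes (29.1%). Each name gives a start and an end and, for all but 13 probes, a suffix F or R for the strand the probes were designed to. The files do not say that the transcripts are noncoding, and coding potential was not analysed here. Each array held RNA of 1 nucleus, and each nucleus had 2 arrays, from 2 female C57BL/6J mice (C57BL/6 in the labels) of 3 months of age, for which the labels name no treatment. Nuclei were cut from sections by laser microdissection, so glia, blood vessels, and fibers of passage came with the neurons. The sources used here do not say which arrays share a mouse. Because each nucleus was read on 2 arrays, p-values rest on the spread within these pairs, pooled over the 4 nuclei, which may be technical.

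Long RNAs without a protein product are transcribed from many places between genes, often at low levels and often in few cell types, and a locus can be read from both strands. In the hypothalamus, the Arc holds the neurons that sense leptin and drive or curb feeding, the VMH neurons of energy expenditure and social behavior, the DMH neurons of feeding rhythm and body temperature, and the LH the orexin and melanin-concentrating hormone neurons of arousal. A strand suffix is not by itself evidence of the transcribed strand here. The RNA was amplified as cDNA before it was labeled, and the sources used here do not say that the amplified material kept the strand.

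Loci lay on 20 chromosomes, with 75 to 269 loci on each, and spanned 62 to 7128487 bp with a median of 7304 bp. A locus had a median of 3 and at most 20 probes. Of the probes, 8171 were on the F strand, 8010 on the R strand, and 13 probes of 3 loci had no suffix. Both strands were covered at 1067 loci, the F strand alone at 1251, and the R strand alone at 1222. Joining loci within 10 kb of each other gave 1968 regions, so many loci overlap or abut, and probes of 1 locus or region are not independent. The genome build of the positions is not given in the sources used here. On 7 chromosomes, 20 loci with 72 probes start past the last gene of the RefSeq annotation of GRCm38.p6, so that build was not used to place the loci, and whether a locus lies in an exon, an intron, or between genes was not analysed here.

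Values below are scaled signals, the intensity of a probe on an array after dividing by the array's 75th percentile, on a scale on which the 8 divisors have a geometric mean of 1. A probe was tested when it was well above background, by the scanner software's own call, on both arrays of at least 1 nucleus. This held for 6503 locus probes (40.2%), at 2276 loci (64.2%), against 56.7% of the 39487 other probes. A further 1267 loci had no tested probe. Locus probes were well above background on all 8 arrays in 27.7% of cases and on none of them in 51.4%, and 46.3% of the other probes were above it on all 8. The median span of loci with a tested probe was 10840.5 bp, and that of loci without was 2213 bp. Of the tested locus probes, 625 passed through 1 nucleus only: 352 through the DMH, 150 through the VMH, 83 through the Arc, and 40 through the LH. A probe that passed through 1 nucleus only had to be higher there than elsewhere, so counts over such probes are descriptions.

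The LH arrays stood apart. Over locus probes, log2 signals of both LH arrays correlated at 0.912, below the 0.948 of the second LH array with the second DMH array, whereas the Arc, VMH, and DMH pairs correlated at 0.974, 0.966, and 0.964. The first LH array also had 364 outlier spots, against 126 to 161 on the others. By limma, marker genes matched the nuclei unevenly. All 5 Arc markers were called higher in the Arc and both VMH markers in the VMH, but only 1 of 4 DMH markers in the DMH. All 4 were highest in the DMH, however, with a summed signal of 9685 to 12148 there and 137 to 1096 elsewhere. Neither Hcrt nor Pmch, the LH markers, passed the test, with a summed signal of 123622 to 133754 in the LH and 62914 to 72193 in the DMH. A lower signal in a bulk sample can mean fewer cells of a type or less RNA per cell, and these cannot be told apart.

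By the limma F-test over the 4 nuclei, 327 of the 6503 tested locus probes (5.03%) at 201 loci in 179 regions differed at an adjusted p under 0.05. Over all 28896 tested probes the share was 8.34%, and over the other probes alone 9.3%. Of the called locus probes, 115 were highest in the LH (35.2%, against 40.5% of the other called probes), 88 in the Arc (26.9% against 22.7%), 88 in the VMH (26.9% against 29.7%), and 36 in the DMH (11.0% against 7.15%). Lowest were 125 in the Arc (38.2% against 44.7%), 95 in the LH (29.1% against 18.9%), 74 in the VMH (22.6% against 25.8%), and 33 in the DMH (10.1% against 10.6%). The differences between these shares were not tested. The median log2 range over nuclei was 2.18 among the called locus probes, 0.69 among all tested locus probes, and 0.63 among other tested probes. Leaving out any array of the Arc, VMH, or DMH lowered the count of 327 probes, whereas leaving out either array of the LH raised it.

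Called probes clustered at some places. At 62 loci at least 2 probes were called, 188 probes in all. At 52 of these loci every called probe was highest in the same nucleus, and at 48 every called probe was lowest in the same one. The region with the most called probes was chr1:42689799-42771337, with 11 of 17 tested probes called and the LH highest. It was followed by chrX:90997595-91009570 (10 of 17, VMH highest), chr19:23064968-23190256 (9 of 13, LH highest), and chr3:146629425-146649125 (8 of 12, LH highest).

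In the Arc, 8 locus probes were higher than in each other nucleus (limma, adjusted p under 0.05 in all 3 comparisons, against 0.339% of all tested probes and 0.123% of tested locus probes). They came from only 2 loci, and all 8 had passed the filter through the Arc alone. The first locus, chr8:67542714-67561694, had 10 F and 5 R probes. Its F probe A_30_P01030588 had a signal of 1793 and 1384 in the Arc, 32.4 and 19.7 in the VMH, 22.0 and 20.4 in the DMH, and 23.5 and 27.9 in the LH. Both Arc arrays were far above the other 6, on none of which the probe was well above background. A nucleus without a measured value gives only a bound, taken from the lowest measured signal of its arrays, and on that scale the Arc was at least 15.2-fold above the VMH, at least 16.8-fold above the DMH, and at least 15.4-fold above the LH. The limma adjusted p-values were 0.000335 to 0.000373. Here and for other probes with a bound, such p-values compare a nucleus with signals not above background, in a probe that entered the fit because of its high nucleus, and they describe the call without supporting it.

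The other tested F probes of this locus were also highest in the Arc. A_30_P01020733 gave 330.4 and 174 in the Arc, 27.3 and 18.4 in the VMH, 19.5 and 19.3 in the DMH, and 20.9 and 26.6 in the LH, at least 2.31-fold above each other nucleus. A_30_P01022915 gave 279.8 and 143 in the Arc, 31.1 and 19.5 in the VMH, 22.5 and 21.6 in the DMH, and 24.3 and 30.4 in the LH, at least 1.92-fold above each. The last tested F probe, A_30_P01032100, gave 255 and 206 in the Arc, 40.3 and 49.2 in the VMH, 33.1 and 53.3 in the DMH, and 25.2 and 107 in the LH and was not called (F-test adjusted p = 0.109). None of the 5 R probes of the locus was tested, so only its F strand was measured.

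The second Arc locus, chr6:129151512-129208737, spans 57226 bp and has 10 probes on each strand. Of its probes 8 were tested, 4 on each strand, and all 8 were highest in the Arc. The R probe A_30_P01027568 had a signal of 543 and 327 in the Arc, 37.2 and 23.0 in the VMH, 23.2 and 25.6 in the DMH, and 22.9 and 32.1 in the LH, at least 4.05-fold above each other nucleus (largest limma adjusted p = 0.00432). The F probe A_30_P01017796 gave 281 and 337 in the Arc, 77.3 and 54.2 in the VMH, 101 and 93.1 in the DMH, and 73.1 and 61.6 in the LH. Both Arc arrays lay above the other 6, and the Arc was at least 2.96-fold above the others. The remaining called probes, A_30_P01025159 on the R strand and A_30_P01028500 and A_30_P01026548 on the F strand, had Arc signals from 134 to 291 and bounds of 1.85 to 2.71. Both strands of this locus were called higher in the Arc. The count of 8 became 2 without the first DMH array, 5 without the second DMH array, 14 without the first LH array, and 21 without the second Arc array. Of the 8 probes themselves, 3 were still called when signals below background were set to the lowest measured level, 4 after normexp background correction, 4 without the first Arc array and 2 without the first DMH array.

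Genes of ependymal cells and tanycytes, which line the ventricle beside the Arc, moved in the same direction as these loci. The list of 6 genes had a summed signal of 5024 to 5154 in the Arc and 1279 to 2659 elsewhere. Of the 6, 2 were too dim to test, and of the 4 tested, Rax, Col23a1, and Crym were highest in the Arc and Ccdc153 in the VMH, and Rax and Col23a1 were called higher in the Arc. None of the 5 anterior pituitary genes listed passed the filter. Among them Cga gave 1425 on the first Arc array, 28.6 on the second, and at most 30.4 elsewhere. The part of these cells in the signals of the 2 loci was not tested.

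In the LH, 15 locus probes at 8 loci were higher than in each other nucleus (0.484% of all tested probes, 0.231% of tested locus probes), and 7 of them had no other nucleus above background on any array. The highest ratios lay in a stretch of chromosome 3, chr3:125556184-125564266, with 4 loci and 10 probes, of which 8 were tested and 7 called by the F-test. The R probe A_30_P01018324 of chr3:125556577-125557102 had a signal of 28.8 and 27.5 in the Arc, 29.6 and 34.6 in the VMH, 20.9 and 26.0 in the DMH, and 424 and 472 in the LH. The LH was at least 3.95-fold above the Arc, 4.3-fold above the VMH, and 4.78-fold above the DMH (largest limma adjusted p = 0.00259). The R probe A_30_P01024196 of chr3:125556184-125556476 gave 28.2 and 26.5 in the Arc, 56.3 and 55.7 in the VMH, 18.6 and 31.8 in the DMH, and 616 and 629 in the LH, at least 5.5-fold above each other nucleus (largest limma adjusted p = 0.00405). Both probes were measured in the LH alone.

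A few kilobases away, at chr3:125563727-125564266, an F probe had VMH and DMH signals between those of the Arc and the LH. The R probes above have bounds only, which do not tell whether their pattern differed. The F probe A_30_P01028874 gave 78.3 and 50.6 in the Arc, 359.7 and 347 in the VMH, 289 and 337 in the DMH, and 1838 and 1724 in the LH. The LH was 5.04-fold above the VMH, the next nucleus, and at least 15.7-fold above the Arc, in which no array was above background, so this probe was called both higher in the LH and lower in the Arc. At chr3:125556184-125556476 the R probe A_30_P01028269 had 29.7 and 26.5 in the Arc, 30.2 and 76.2 in the VMH, 21.6 and 29.0 in the DMH, and 446 and 473 in the LH, at least 4.06-fold above each other nucleus, and A_30_P01030260 was the third called probe of that locus. Not every probe of the stretch moved. A_30_P01029384, on the same strand of the same locus as A_30_P01018324, gave 3744 and 2126 in the Arc, 2978 and 1842 in the VMH, 2559.7 and 1675 in the DMH, and 2176 and 2722 in the LH, with overlapping nuclei and an F-test adjusted p of 0.823.

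The locus chr7:91558475-91733625, 175151 bp long, was higher in the LH on both strands. Of its 12 probes 7 were tested and 6 called, 2 on the F and 4 on the R strand. The F probe A_30_P01024322 gave 27.6 and 26.2 in the Arc, 45.0 and 21.5 in the VMH, 19.3 and 18.7 in the DMH, and 317 and 336 in the LH, at least 2.88-fold above each other nucleus. The R probe A_30_P01021626 gave 164 and 183 in the Arc, 112 and 256 in the VMH, 105 and 85.9 in the DMH, and 765 and 773 in the LH, a ratio of 4.18 to the next nucleus, the VMH, whose arrays were spread. The F probe A_30_P01022821 was measured on all 8 arrays, with 227 and 297 in the Arc, 313 and 333 in the VMH, 205 and 208 in the DMH, and 925 and 1117 in the LH, a 3.16-fold ratio and a largest adjusted p of 0.0151. Both LH arrays were above every other array on each of the 6 called probes. The seventh tested probe, A_30_P01017882 on the F strand, ranged from 170.2 to 1235 with overlapping nuclei (F-test adjusted p = 0.615).

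The other loci higher in the LH each had 1 probe called higher there by limma. The F-test called 2 probes at chr19:5771425-5848475 and 3 at chr2:94082835-94101939. A_30_P01026417 on the F strand of chr2:33500594-33501874 gave 32.6 and 32.3 in the Arc, 38.5 and 21.3 in the VMH, 25.1 and 21.7 in the DMH, and 367 and 189 in the LH, at least 2.33-fold above each other nucleus. Another, A_30_P01020604 on the F strand of chr19:5771425-5848475, gave 4793 and 2929 in the Arc, 7608 and 5834 in the VMH, 5833 and 5158 in the DMH, and 23487 and 19575 in the LH, a 3.2-fold ratio of the LH to the VMH on measured signals. Genes of oligodendrocytes, the cells that form myelin, moved with these loci. All 10 genes of that list were highest in the LH and 5 were called, with a summed signal of 105456 to 112365 in the LH and 12575 to 35645 elsewhere, and their part in the LH loci was not tested. Of 6 endothelial genes 5 were highest in the LH, 1 of them too dim to test, with sums of 5032 to 7179.5 there and 2885 to 4838 elsewhere. Astrocyte genes summed to 128606 to 138487 in the LH and 79523 to 113182 elsewhere, with 4 of 8 highest in the LH, and the part of these cells was not tested either. The 15 probes became 17 without the first LH array, of which 12 were in common, and 55 without the second, with 13 in common, and leaving out an array of any other nucleus gave 4 to 9.

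In the VMH, 11 locus probes at 9 loci were higher than in each other nucleus (0.54% of all tested probes, 0.169% of tested locus probes), 6 of them with no other nucleus above background. A_30_P01018697 on the F strand of chr9:81536195-81538236 gave 28.0 and 26.2 in the Arc, 376 and 423 in the VMH, 59.2 and 26.6 in the DMH, and 44.2 and 27.1 in the LH, at least 3.52-fold above each other nucleus (largest limma adjusted p = 0.0112). A_30_P01022865 on the R strand of chr11:59206727-59207172 gave 28.6 and 27.7 in the Arc, 382 and 304 in the VMH, 55.7 and 20.5 in the DMH, and 29.6 and 28.0 in the LH, at least 3.01-fold above each, and A_30_P01027962 on the R strand of chr3:148884650-148888709 gave 34.4 and 34.3 in the Arc, 257 and 129 in the VMH, 26.5 and 22.9 in the DMH, and 26.9 and 31.7 in the LH, at least 1.61-fold above each. These 3 loci are short, and each was measured in the VMH alone. A_30_P01020277 on the R strand of chr17:8025086-8026227 gave 89.7 and 99.0 in the Arc, 311 and 194 in the VMH, 76.7 and 89.5 in the DMH, and 23.5 and 29.5 in the LH, with adjusted p-values up to 0.0432. The VMH calls were open to single arrays, since 1 of the 11 remained called without either VMH array, although 17 and 5 probes were called then. Without an array of the Arc or DMH the count was 2 to 4, and without the second LH array 17.

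In the DMH, 1 locus probe was higher than in each other nucleus (0.0208% of all tested probes). A_30_P01028590, on the F strand of chr3:34003359-34537330, gave 118 and 124 in the Arc, 305 and 381 in the VMH, 1101 and 896 in the DMH, and 339.9 and 353 in the LH. The DMH was 2.88-fold above the LH, the next nucleus, with a log2 difference of DMH minus LH of 1.52 (SE 0.21, adjusted p = 0.0372), and at least 8.1-fold above the Arc, where neither array was above background. All 3 probes of this 533972 bp locus were highest in the DMH and lowest in the Arc, 2 of them called by the F-test. The third, A_30_P01018719, gave 30.1 and 29.2 in the Arc, 29.3 and 111 in the VMH, 306 and 302 in the DMH, and 88.5 and 34.7 in the LH (F-test adjusted p = 0.0669). The DMH call was lost, among other settings, with normexp background correction, without scaling, without the filter on dim probes, and without any array of the Arc, VMH, or DMH. Without the first or second DMH array, other probes were called higher in the DMH, but the background filter then asked only the lone DMH array.

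**Figure D1:**
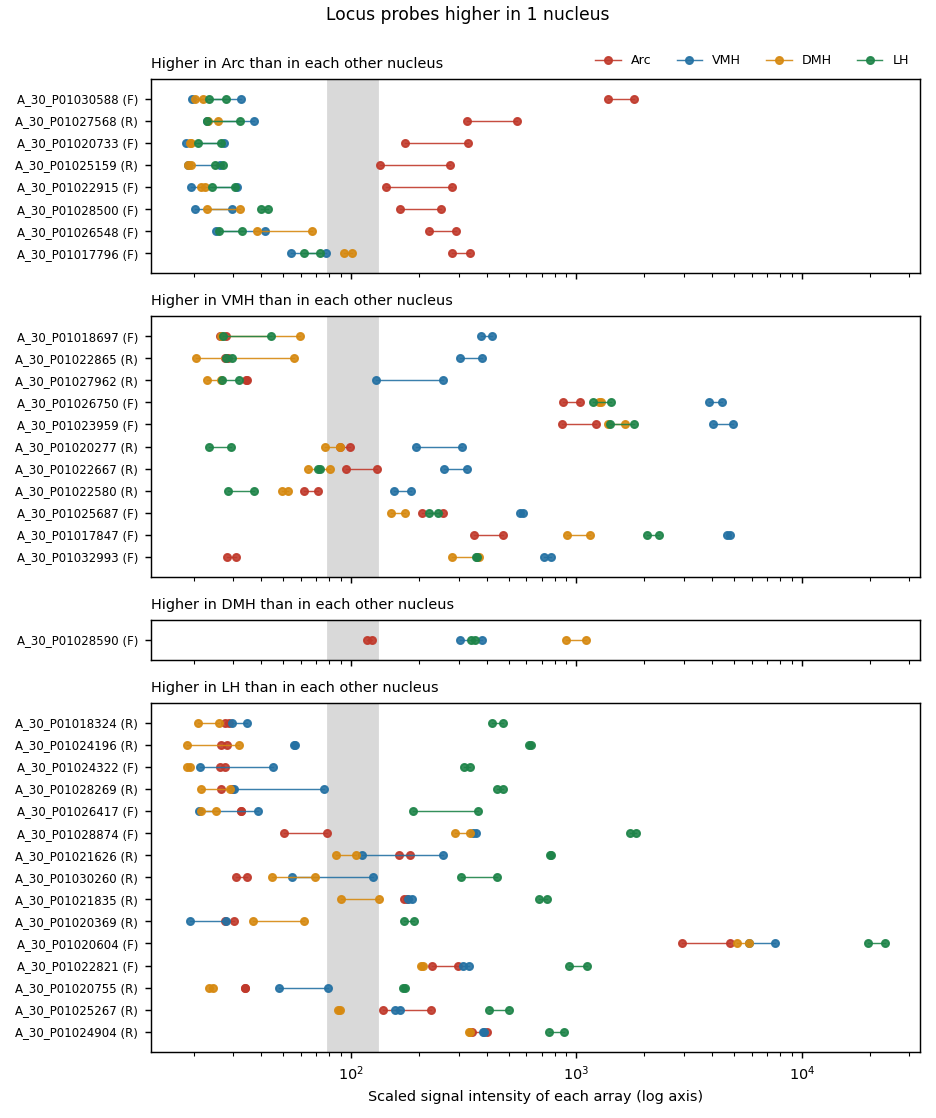
Scaled signal intensity on a log axis of every locus probe called higher in 1 nucleus by limma, with 1 row per probe, 1 panel per nucleus, and the strand suffix in parentheses. Each color is a nucleus, each dot 1 array, and a line joins the 2 arrays of a nucleus. The gray band runs from the lowest to the highest of the 8 arrays' lowest signals well above background, 79.3 to 132. In the Arc panel the other nuclei lie in or left of the band, whereas several VMH and LH probes are measured in other nuclei as well.

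When the mean of a nucleus had to reach 10-fold that of each of the others, with both of its arrays above background, 4 locus probes qualified in the Arc (0.111% of all tested probes did), 2 in the LH (0.0519%), and none in the VMH (0.0484%) or the DMH (0.0173%). Of the Arc probes, 3 were A_30_P01030588, A_30_P01027568, and A_30_P01020733, and those in the LH were A_30_P01018324 and A_30_P01024196. Of these 5 probes, A_30_P01030588 alone has bounds above 10-fold. The remaining Arc probe, A_30_P01025575, is the only probe of chr1:122980883-123017009 and rested on 1 array. Its signal was 617 and 23783 in the Arc, 133 and 525 in the VMH, 172 and 673 in the DMH, and 118 and 179 in the LH. The second array was the higher one in every nucleus, and the first Arc array lay below the second DMH array. Its log2 difference of Arc minus DMH was 3.49 (SE 1.61, adjusted p = 0.521, and F-test adjusted p = 0.273). When every Arc array had to exceed every other array 10-fold, 1 probe was left in the Arc. Leaving out an array of the nucleus itself gave 6 or 13 probes in the Arc, 9 or 1 in the VMH, 9 or 13 in the DMH, and 3 or 11 in the LH past 10-fold of the mean, and 2 in the VMH without the first DMH array.

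Lower signals were sought in the same way. In the Arc, 24 locus probes at 17 loci were lower than in each other nucleus (0.457% of all tested probes, 0.369% of tested locus probes), and in 14 of them no Arc array was above background. A_30_P01032993 on the F strand of chr7:77555482-77634858 gave 31.0 and 28.2 in the Arc, 718 and 769 in the VMH, 369 and 279.5 in the DMH, and 360.0 and 361 in the LH. The VMH was at least 6.57-fold, the DMH at least 2.84-fold, and the LH at least 3.19-fold above the Arc (largest limma adjusted p = 0.000998), and the probe was called higher in the VMH as well. A_30_P01017966, at chr3:34856791-34869544 and without a strand suffix, was measured on all 8 arrays, with 202 and 139 in the Arc, 719 and 999 in the VMH, 907 and 701 in the DMH, and 1542 and 1398 in the LH. Arc minus DMH was -2.25 (SE 0.28, adjusted p = 0.0164), and the order of the nuclei was Arc, then DMH and VMH with overlapping arrays, then LH.

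Another 4 of the 24 probes lay at chr1:42759171-42771337 or its neighbor chr1:42689799-42749799. The F probe A_30_P01019214 of the former gave 29.5 and 27.1 in the Arc, 204 and 107 in the VMH, 159.7 and 215 in the DMH, and 509 and 382 in the LH, with the VMH at least 1.3-fold, the DMH at least 1.64-fold, and the LH at least 3.9-fold above the Arc. A_30_P01032342 on the same strand gave 147 and 141 in the Arc, 518 and 411 in the VMH, 595 and 594 in the DMH, and 898 and 1118 in the LH, with bounds of 3.2, 4.13, and 6.95 in the same order. All 6 tested probes of that locus, and all 4 of the overlapping locus chr1:42758928-42771337, were highest in the LH and lowest in the Arc. The calls were lost with few arrays, since 3 of the 24 probes remained without the first Arc array and 2 without the second. The count of 24 was 5 to 10 without an array of the VMH or DMH, and 37 without the first LH array. Summed markers were also lowest in the Arc for oligodendrocytes, at 12575 to 18620, and for neurons, at 139439 to 140223 against 153496 to 208061 elsewhere. The same held for astrocytes, at 79523 to 84644 against 90683 to 138487, although 2 of the 8 astrocyte genes, Gfap and Aqp4, were highest in the Arc. Endothelial sums were 2885 to 2956 in the Arc against 2979 to 7179.5. By mean signal, however, Cldn5 and Cdh5 were lowest in the VMH and Tek in the LH. The brightest neuronal gene, Snap25, was lowest in the DMH, at 60499 and 64594 against 67037 and 65067 in the Arc. The part of these cells in the Arc values was not tested.

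In the VMH, 12 locus probes at 9 loci were lower than in each other nucleus (0.484% of all tested probes, 0.185% of tested locus probes), 4 of them with no VMH array above background. A_30_P01024014 on the F strand of chr7:91300649-91302183 gave 3319.7 and 3487 in the Arc, 152 and 131 in the VMH, 727 and 1564 in the DMH, and 981 and 908 in the LH. The Arc was highest and the DMH arrays were spread, and VMH minus LH was -2.74 (SE 0.35, adjusted p = 0.00906). A_30_P01028898 on the F strand of chr17:29374758-29387733 gave 2189 and 3131 in the Arc, 398 and 663 in the VMH, 4241 and 3983 in the DMH, and 2431 and 2553 in the LH (VMH minus LH -2.28, SE 0.30, adjusted p = 0.00993). All 8 arrays measured this probe, and both VMH arrays lay below the other 6. A_30_P01031510 on the R strand of chr13:56851404-56851796 gave 113 and 172 in the Arc, 28.3 and 19.5 in the VMH, 268 and 481 in the DMH, and 427 and 176 in the LH, with the DMH at least 3.45-fold and the LH at least 2.64-fold above the VMH, and the Arc above background on 1 array only. Without an array of the Arc, VMH, or DMH the count of 12 fell to between 2 and 7, with 1 to 3 of the 12 probes among them, and without the second LH array it was 19.

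The strands of chr2:94082835-94101939 were called in different nuclei. Its F probe A_30_P01024092 was lower in the VMH, with 253 and 264 in the Arc, 26.1 and 19.3 in the VMH, 428 and 134 in the DMH, and 286 and 182 in the LH, the others being at least 2.2-fold above it. The R probe A_30_P01020369 of the same positions was higher in the LH, with 30.2 and 27.5 in the Arc, 27.9 and 19.2 in the VMH, 36.8 and 62.0 in the DMH, and 191 and 172 in the LH. The test of a difference between its strands did not pass (adjusted p = 0.484).

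In the LH, 15 locus probes at 15 loci were lower than in each other nucleus, 0.231% of tested locus probes against 0.163% of all tested probes, and 14 of them had no LH array above background. A_30_P01027192 on the F strand of chr1:87343550-87362900 gave 721 and 644 in the Arc, 678 and 344 in the VMH, 716 and 605 in the DMH, and 45.6 and 124 in the LH, the Arc being at least 6.66-fold and the VMH at least 4.72-fold above the LH, with adjusted p-values up to 0.0488. A_30_P01031181 on the F strand of chr19:60261340-60273465 gave 228 and 228 in the Arc, 230.5 and 212 in the VMH, 285 and 214 in the DMH, and 63.6 and 35.7 in the LH, at least 2.16-fold below each other nucleus. A_30_P01030188 on the F strand of chr8:74333475-74384150 gave 227 and 146 in the Arc, 129 and 184 in the VMH, 153 and 215 in the DMH, and 23.9 and 26.9 in the LH, and A_30_P01019385 on the F strand of chr3:35782698-35789932 gave 269 and 90.3 in the Arc, 201 and 158 in the VMH, 244 and 229.9 in the DMH, and 26.0 and 27.7 in the LH. These signals elsewhere were low, and 2 of the 15 probes were still called once signals below background had been set to the lowest measured signal. The count was 115 without the first LH array and 231 without the second, and 0 to 8 without an array of another nucleus. Microglial genes summed to 34115 to 35004 in the LH and 38826 to 45038 elsewhere, although 4 of the 6 were highest in the LH. Most of this sum was Csf1r, at 24883 to 25294 in the LH and 30814 to 38710 elsewhere. The part of microglia was not tested. No locus probe was lower in the DMH by limma after adjustment (0.0173% of all tested probes were), 11 were at an unadjusted p under 0.05 in all 3 comparisons, and 1 or 3 were called without the first or second DMH array and 1 without the second LH array. Tukey-Kramer p-values gave 0 in every nucleus and direction after adjustment, and 1 here unadjusted.

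**Figure D2:**
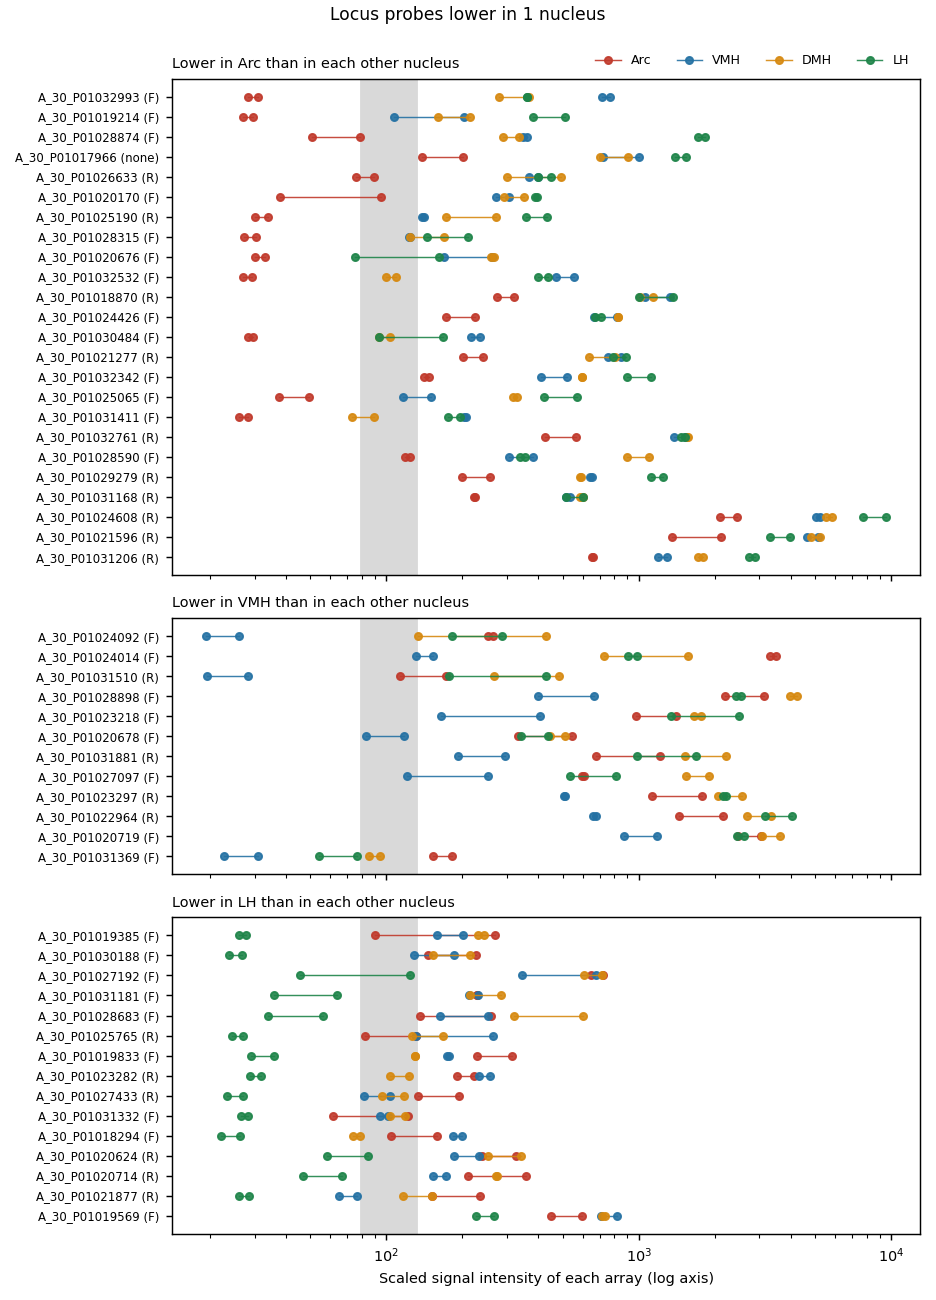
Scaled signal intensity on a log axis of every locus probe called lower in 1 nucleus by limma, drawn as in the plot of higher probes, with 1 dot per array, lines joining the 2 arrays of a nucleus, and the gray band from 79.3 to 132. LH signals of 14 of the 15 probes in the LH panel lie at or left of the band, and in the Arc panel most LH, DMH, and VMH arrays lie to its right. No DMH panel is drawn because no probe was called.

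Scaling bears on these directions. Without scaling between arrays, the median log2 difference over all tested probes was -0.46 for Arc minus DMH and 0.33 for DMH minus LH, against 0.02 and 0.01 with the 75th percentile. Without scaling 7 locus probes were higher and 45 lower in the Arc, in place of 8 and 24, and 9 were higher and 19 lower in the LH, in place of 15 and 15. Quantile normalization gave 16 higher and 8 lower in the LH.

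At 618 loci both strands had a tested probe. The F-test called the F strand at 54 and the R strand at 58 of them, both strands at 21, which is 38.9% of the former and 36.2% of the latter, and neither at 527. At 19 of the 21 loci both strands were highest in the same nucleus, and at 17 they were lowest in the same one. Over all 618 loci the strands shared the highest nucleus at 293 (47.4%). The difference of a nucleus from the mean of the other 3 correlated between strands at r = 0.51 in the Arc, 0.36 in the VMH, 0.35 in the LH and 0.27 in the DMH, over the 618 loci. When single arrays were left out, the Arc r ranged from 0.36 to 0.50, the VMH r from 0.24 to 0.35, the LH r from 0.22 to 0.37 and the DMH r from 0.18 to 0.30. The lowest values came without the second Arc array, the first VMH array, the second LH array and the first DMH array, in that order, and the DMH value was also 0.18 without the second LH array. The ranges of the VMH, LH and DMH overlap, and that of the Arc overlaps that of the LH, so no order of the nuclei is given. Single pairs of probes on opposite strands correlated at a mean of 0.25 over the nuclei, and 1616 pairs on the same strand at 0.43. Both strands were read on the same arrays, so shifts of an array enter both axes, and these r are descriptions.

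**Figure D3:**
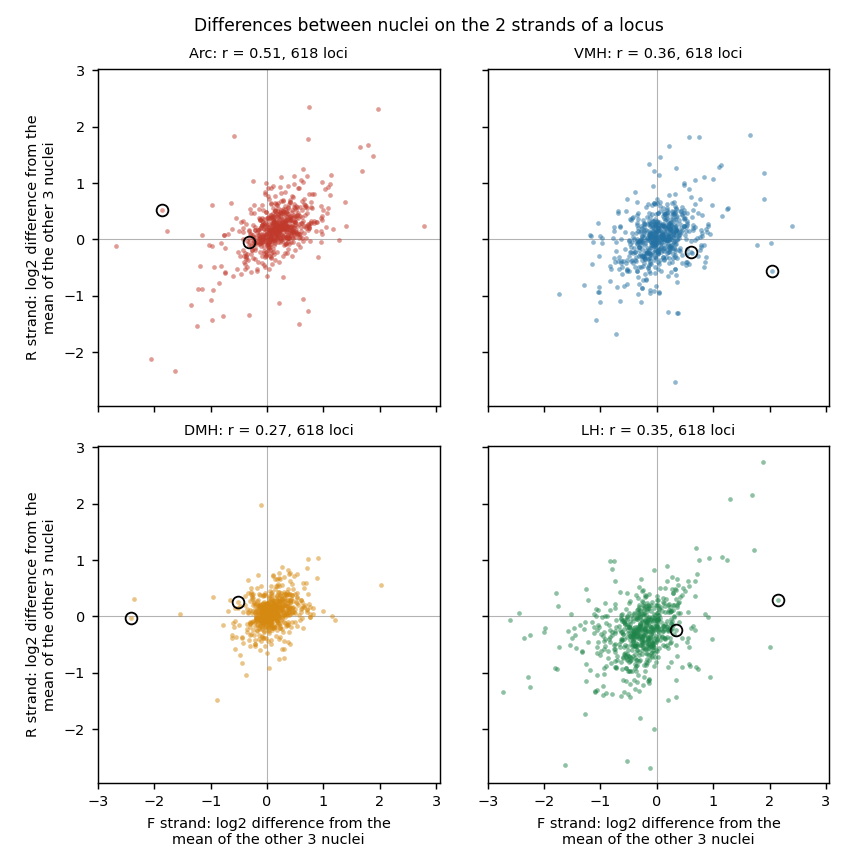
Difference of each nucleus from the mean of the other 3, as log2 of scaled signal, on the F strand (x axis) and the R strand (y axis) of the 618 loci tested on both, 1 panel per nucleus and 1 dot per locus. The circled dots are the 2 loci whose strands differed by the strand-by-nucleus test, which lie away from the diagonal in the VMH and Arc panels for the locus on chromosome 11 and in the DMH and LH panels for that on chromosome 1. The cloud is most drawn out along the diagonal in the Arc panel, r = 0.51.

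Of the loci called on both strands, 6 with the lowest F-test p on their weaker strand are described, among them the loci on chromosomes 1, 6, and 7 given above. At chrX:90997595-91009570, 15 of 19 probes were tested and 8 called, 4 on each strand. Of the 15, 13 were highest in the VMH and 13 lowest in the Arc. The F probe A_30_P01032782 gave 191 and 189 in the Arc, 1189.6 and 950.3 in the VMH, 455 and 342 in the DMH, and 869 and 985 in the LH, and the R probe A_30_P01027891 gave 404 and 371 in the Arc, 1643 and 1571 in the VMH, 543 and 569.6 in the DMH, and 1075 and 1181 in the LH. The R probe ordered the nuclei as VMH, LH, DMH, and Arc with no overlap between neighbors, and on the F probe the order was the same but the VMH and LH arrays overlapped.

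At chr5:35975265-35982561 all 7 tested probes were called, 4 on the F and 3 on the R strand, and all were highest in the LH and lowest in the Arc. The F probe A_30_P01021642 gave 2585 and 2377 in the Arc, 5658 and 5268 in the VMH, 5277 and 5001 in the DMH, and 9437 and 9661 in the LH, and the R probe A_30_P01029279 gave 258 and 198 in the Arc, 641 and 652 in the VMH, 586 and 592 in the DMH, and 1252 and 1117 in the LH. The VMH and DMH lay close together between the extremes on both strands. At chr13:83867711-83878140, 11 of 12 tested probes were lowest in the Arc and 4 were called. The F probe A_30_P01024426 gave 172 and 224 in the Arc, 817 and 668 in the VMH, 829.9 and 826 in the DMH, and 671 and 709 in the LH, and the R probe A_30_P01032761 gave 426 and 565 in the Arc, 1529 and 1382 in the VMH, 1552 and 1562 in the DMH, and 1465 and 1526 in the LH. Both Arc arrays lay below the other 6 on both probes, and the VMH, DMH, and LH arrays lay close together. A single F probe of this locus, A_30_P01032717, was highest in the Arc, with arrays from 1173 to 10149 and an F-test adjusted p of 0.219.

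At chr1:42759171-42771337, shown above for its F strand, the R probes followed the same order. A_30_P01025190 gave 33.9 and 30.2 in the Arc, 138 and 141 in the VMH, 271 and 173 in the DMH, and 435 and 357 in the LH, and A_30_P01021816 gave 78.6 and 93.7 in the Arc, 76.6 and 189 in the VMH, 343 and 326 in the DMH, and 964 and 487 in the LH. The LH was highest and the Arc lowest on both, with the VMH arrays of the second probe spread over the Arc values.

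**Figure D4:**
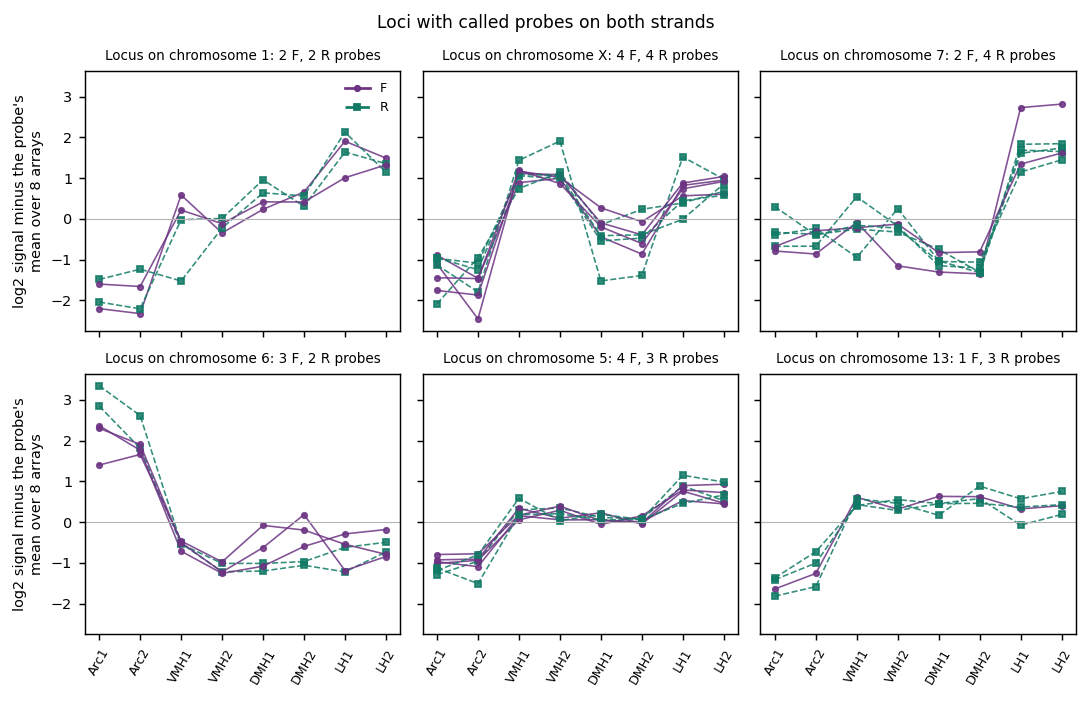
Called probes of the 6 loci called on both strands with the lowest p on the weaker strand, as log2 signal minus the probe's mean over the 8 arrays (y axis) on each array (x axis). Solid lines with round dots are F probes, and dashed lines with squares are R probes. Lines of both strands run together, with the Arc highest at the locus on chromosome 6, lowest at the loci on chromosomes 1, 5, 13, and X, and the LH highest at the locus on chromosome 7.

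The strand-by-nucleus F-test in limma, on the within-array log2 difference of the strands, called 2 of the 618 loci (0.324%). The count was 0 or 1 without an array of the Arc or VMH, 4 without either DMH array, and 8 or 12 without an LH array. At chr11:55315017-55322092, 7076 bp long, all 5 F probes were tested and called, and of 10 R probes 8 were tested and none called (F-test adjusted p = 0.0959 to 0.544). The F probe A_30_P01017611 gave 2059 and 3382 in the Arc, 31802 and 30345 in the VMH, 6558 and 8421 in the DMH, and 15967 and 14773 in the LH, and A_30_P01019712 gave 1621 and 2336 in the Arc, 19636 and 18617 in the VMH, 4289 and 5237 in the DMH, and 8676 and 9327 in the LH. All 5 F probes were highest in the VMH and lowest in the Arc, with both VMH arrays above the other 6. The R probe A_30_P01021178 gave 459 and 534 in the Arc, 188 and 223 in the VMH, 519 and 448 in the DMH, and 506 and 285 in the LH, and A_30_P01018694 gave 167 and 157 in the Arc, 69.0 and 89.9 in the VMH, 153 and 109 in the DMH, and 108 and 67.4 in the LH. On the R strand 7 of the 8 probes were highest in the Arc, and 6 were lowest in the VMH.

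Taken over the tested probes of each strand, the VMH differed from the mean of the other nuclei by a log2 of 2.04 on the F strand and -0.55 on the R strand, and the Arc by -1.86 and 0.53. The difference between strands changed by -3.74 from the VMH to the Arc (F minus R, Arc minus VMH, SE 0.31, adjusted p = 0.00196), by 2.52 for VMH minus DMH (adjusted p = 0.0312), and by -2.22 for Arc minus LH (adjusted p = 0.0352). That of VMH minus LH was 1.52 and did not pass (adjusted p = 0.113). The F-test adjusted p was 0.0124, and it missed the threshold without any array of the Arc or VMH. It ranged from 0.000596 to 0.238 over the other alternatives, of which the one-way ANOVA alone lost the call. Of the 5 F probes, 3 were called higher in the VMH than in each other nucleus, namely A_30_P01026750, with 1042 and 870.0 in the Arc, 3889 and 4403 in the VMH, 1261 and 1281 in the DMH, and 1185 and 1424 in the LH, A_30_P01023959, and A_30_P01017847.

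**Figure D5:**
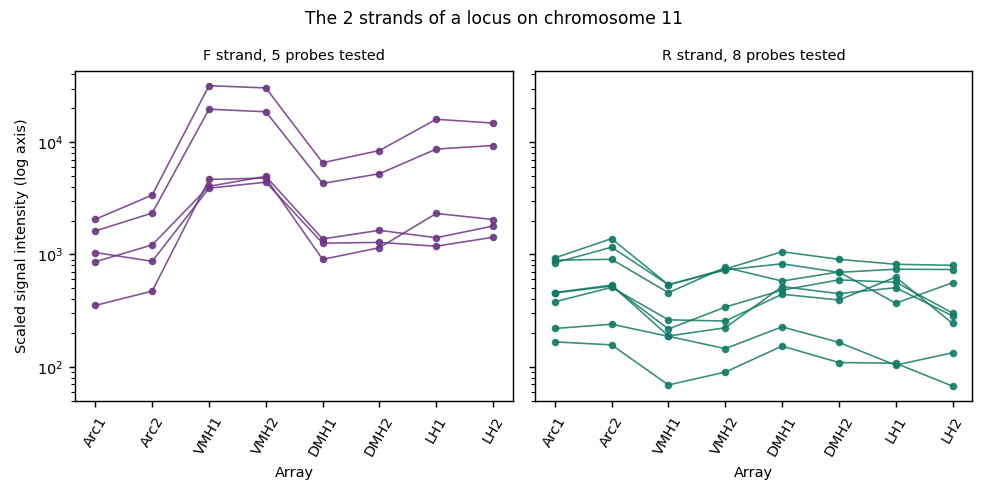
Scaled signal intensity (log axis) on each of the 8 arrays of the tested probes of the locus chr11:55315017-55322092, 5 on the F strand (left) and 8 on the R strand (right), with 1 line per probe. The F lines peak on both VMH arrays and are lowest on the Arc arrays, and the R lines dip or stay level on the VMH arrays.

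At the other locus, chr1:137679100-137689925, 1 F and 2 R probes were tested. The F probe A_30_P01028334 gave 95.3 and 72.2 in the Arc, 153 and 118 in the VMH, 36.7 and 21.1 in the DMH, and 221 and 403 in the LH, lowest in the DMH and highest in the LH. The R probe A_30_P01028104 gave 434 and 503 in the Arc, 518 and 326 in the VMH, 647 and 474 in the DMH, and 851 and 921 in the LH, and A_30_P01024397 gave 6399 and 3906 in the Arc, 5697 and 4000.4 in the VMH, 5455 and 3419 in the DMH, and 3509.6 and 4103 in the LH. On the former the DMH mean lay between those of the Arc and the LH, and on the latter the nuclei overlapped. The adjusted p of the strand-by-nucleus test was 0.0268. It missed the threshold without any array of the Arc, VMH, or DMH (up to 0.136) and in 5 of the 8 other alternatives that gave a value (up to 0.435), and the F strand rests on 1 probe that no DMH array measured above background.

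Of the loci with 20 probes, 3 had every probe tested. At chr16:43623581-43642715, 19135 bp, all 20 probes on both strands were tested and all 20 were highest in the Arc, and 12 were lowest in the VMH and 8 in the LH. The F probe A_30_P01027209 gave 2921 and 3142 in the Arc, 1230.3 and 1275 in the VMH, 2296 and 2304 in the DMH, and 1058 and 1388 in the LH (F-test adjusted p = 0.0198), and the R probe A_30_P01029747 gave 10006 and 7846 in the Arc, 3783 and 3671 in the VMH, 5811 and 5711 in the DMH, and 5247 and 5094 in the LH (0.0411). Of the 20 probes 4 were called by the F-test, and none was called higher in the Arc against each other nucleus.

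At chr14:65431652-65437902 and chr17:26911397-26917047 the VMH was lowest on all 20 probes of each locus. The former was highest in the LH on 16 probes and had no called probe, and the latter was highest in the LH on 11 and in the DMH on 9 and had 1 called. Its R probe A_30_P01019026 gave 2163 and 2559 in the Arc, 1237 and 1300.3 in the VMH, 2149.9 and 2644 in the DMH, and 3729 and 2841 in the LH (F-test adjusted p = 0.0467). Probes of 1 locus were read in the same RNA on the same arrays, so 20 equal directions at a locus are not 20 observations.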

How the data were processed

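RNA of laser-microdissected nuclei was measured on 8 one-color arrays of 1 slide, and each array took its nucleus and replicate number from its labels. The authors amplified the RNA as cDNA, labeled it chemically, and extracted spot intensities with Agilent Feature Extraction, version 10.7.3.1 per the file headers and 11.5.1.1 in the methods and labels. The dye is Cy3 in the labels and Cy5 in the methods, and the files hold the red channel. Deposited processed signals are background-subtracted intensities on a linear scale, without scaling from array to array. A series-wide table gives them averaged and rounded, and at least 99.7% of its values equaled the averaged signals within 0.51. It served as an alternative.

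Spots with an outlier flag were dropped, spots of a probe averaged, each array divided by its 75th percentile, and log2 taken. One limma model (3.58.1, in R 4.3.3) with a mean per nucleus was fitted to the 28896 probes that both arrays of some nucleus measured well above background. Residual degrees of freedom were 4, and 3.02 were added by the prior. The Benjamini-Hochberg adjustment ran over all of these probes, with a threshold of 0.05. Higher or lower in a nucleus meant past it in all 3 comparisons with the other nuclei. Strands were compared on within-array log2 differences at the 618 loci tested on both. The steps were tested on simulated data. No spot was saturated. Precision is limited by signal over background and by having 2 arrays per nucleus.

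Named probes were those named by position in the study's list of selectively expressed genes, which was drawn from these arrays, the probes with the largest or lowest ratios in each nucleus among those called, all probes past 10-fold, the loci called on both strands with the lowest p, the loci with differing strands, and the loci with most probes. Others are named as examples, chosen after their values were seen. The loci and marker lists were chosen with earlier results of these data known. Sequences and annotations of the loci were not used here. Alternatives were other scalings, background corrections, filters, fold criteria, test settings, a replicate block, and leaving out each array. In the last, the lone array is assumed to vary like the other nuclei. The background filter and the 10-fold criterion then ask only the lone array of that nucleus, so more probes can pass through it.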

Additional observations from a re-analysis of the deposited data

How the results depend on the processing

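Of the 134 named differences followed, 84 were past the threshold in the main fit. Their directions came from that fit of the same arrays, so the lack of any reversal in 2739 alternatives does not support them. Of the alternatives, 2250 kept the side of the threshold, whether past it or not, 403 lost it, and 86 gained it. Counts depended more on the processing, and the cause was not tested except where fewer probes or arrays entered. Without 1 array, F-test calls ranged from 112 to 702. Counts of higher probes ran from 4 to 55 (LH), 0 to 21 (DMH), 2 to 17 (VMH), and 2 to 21 (Arc). Those of lower probes ran from 0 to 231 (LH), 0 to 3 (DMH), 2 to 19 (VMH), and 3 to 37 (Arc). Past 10-fold were 2 to 11 (LH), 0 to 13 (DMH), 0 to 9 (VMH), and 3 to 13 (Arc). Loci with differing strands numbered 0 to 12, and the mean correlation between strands was 0.296 to 0.355. A one-way ANOVA left 57 F-test calls and 0 strand calls. Tukey-Kramer p-values left 0 higher or lower calls, and unadjusted they left 57 higher and 64 lower (LH), 7 and 1 (DMH), 30 and 33 (VMH), and 31 and 69 (Arc). Without scaling, 45 probes were lower in the Arc, 4 higher and 6 lower in the VMH, 0 higher in the DMH, and 9 higher in the LH. Quantile normalization gave 8 lower in the LH and r = 0.364. Normexp gave 0 higher in the DMH, 5 lower in the LH, 1 past 10-fold in the Arc and 0 in the LH, 1 strand locus, and r = 0.339. Raising dim signals gave 2 higher in the DMH, 4 lower in the LH, 2 past 10-fold in the Arc and 0 in the LH, 1 strand locus, and r = 0.353. Requiring signal above background on all 8 arrays gave 0 higher in the Arc, 6 in the VMH, and 0 in the DMH, 6 lower in the LH, 0 past 10-fold in the Arc and LH, and 1 strand locus. Requiring a mean above the median gave 0 higher in the Arc, 5 in the VMH, and 5 in the LH, 7 lower in the LH, 1 past 10-fold in the Arc and 0 in the LH, 1 strand locus, and r = 0.341. No filter gave 0 higher in the DMH, 6 lower in the VMH, 4 in the LH, 7 past 10-fold in the LH, 8 in the DMH, 5 in the VMH, and 9 in the Arc, and r = 0.391. A 5-fold criterion gave 10 in the Arc, 3 in the VMH, and 8 in the LH, geometric means gave 2 in the VMH, and the criterion that every array pass 10-fold, chosen after seeing the data, gave 1 in the Arc. A trended robust fit gave 42 lower in the Arc, 24 higher in the LH, and 1 strand locus. Keeping outlier spots or using the deposited table gave r = 0.380, and the first or second arrays alone gave 0.273 and 0.283. Replicate numbers are rows of the slide, and deviations of same-numbered arrays correlated at -0.03 to 0.26 between nuclei, so the numbers were not taken as pairs. With a replicate block the F-test called 300 probes, 0 were higher in the DMH, 9 were lower in the LH, and 1 strand locus was called.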
